A study of Mus musculus with 4 samples.

Results

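The genes described here encode collagens, laminins, matrix metalloproteinases and the tissue inhibitors of metalloproteinases, chosen by their names on the array: Col, a number, a and a number; Lama, Lamb or Lamc with a digit; Mmp with a number; or Timp with a digit. The rule found 74 genes, carried by 130 probes, among the 28786 genes on the array: 40 collagens, 10 laminins, 20 matrix metalloproteinases and 4 inhibitors. The laminin gene Lamb1 was named Lamb1-1 in the files and so fell outside the rule, as did Mmp1a.

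Liver RNA of C57BL/6J mice, an inbred laboratory strain, was compared between food-deprived and control animals, in fetuses and in mothers. The 4 pools were control fetus, food-deprived fetus, control mother and food-deprived mother, and the labels describe the same chow and tap water for all. Each pool held RNA of 5 to 10 biological replicates according to the design text, and dye-swapped pools were hybridised to two-colour arrays, 4 in all on 1 slide. The first array of each comparison carried control RNA in the green dye and food-deprived RNA in the red dye, and the second the reverse. The sources used here do not give the length of the food deprivation, nor the age and sexes of the fetuses.

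Collagens are secreted proteins of 3 chains wound into a helix, built from triplets that each start with glycine. Fibrillar collagens form the cables of connective tissue, collagen IV forms the sheet of basement membranes, and laminins, trimers of an alpha, a beta and a gamma chain, form a second network there. Matrix metalloproteinases are zinc proteases that cut these proteins, and the tissue inhibitors of metalloproteinases block them. In liver, stellate cells and portal fibroblasts are the main known makers of fibrillar collagen, while neutrophil precursors, which the fetal liver hosts during blood formation, make the neutrophil collagenase and gelatinase.

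The labels number the arrays of a comparison as pooled samples 1 and 2, the number goes with the dye orientation, and they do not settle whether both arrays held the same pools. They were read as such here, with n = 1 pool per condition, so no significance test was made and no p-value is given. The call rule asks for a mean difference of 2-fold or more and, on every array of the comparison, 1.5-fold or more the same way; "rose" and "fell" describe only genes past it. The spread between arrays is technical on that reading, and would include differences between pools otherwise: the SD per array of a gene's log2 ratio was 0.15 in the fetal comparison and 0.16 in the maternal one. Pairs of values in brackets are the first and the second array. Where the values of pools are said not to overlap, this only describes the arrays. It adds no support to a gene picked by the size of its ratio, and the share over all genes was not counted. A gene is measured here if one of the pools compared stood well above background on each of its arrays. In pooled bulk tissue, fewer cells of a type and less RNA per cell cannot be told apart.

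Of the 74 genes, 67 had at least 1 probe well above background in some channel, 58 were measured in the fetal comparison, 49 in the maternal one and 44 in both. The 11 genes measured in neither comparison were Col4a5, Col9a1, Col10a1, Col12a1, Col19a1, Col28a1, Lamc3, Mmp12, Mmp20, Mmp21 and Mmp24. Per array and dye, 53.2% to 69.7% of gene spots were well above background, and all 7 of the hepatocyte markers on the array were well above background in every pool, among them Alb (albumin) and Ttr (transthyretin). All 12 markers of stellate cells and fibroblasts were well above background in both fetal pools and in the food-deprived maternal pool, and 11 of 12 in the control maternal pool.

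The array reads each gene through 60-base probes, and the results below turn on a few of them. The first 30 bases of some of these probes are shown, because the position of the probe bears on which transcripts it can see. Col3a1, Lamb3 and Col5a3 passed the rule for a response or for the difference in response between mother and fetus. Mmp8 and Col1a1 had the largest differences in control level between mother and fetus:
Col3a1: ataagccaaactctctgaaaccccagcaaa
Lamb3: aatgaaagacatggagtcagaactgcttcg
Col5a3: tctgtggtctatttaatttgcttccttctg
Col1a1: ttttcctttgcattcacctttcaaacttag
Mmp8: tttattctgaggagatttgggaagaatcag

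On the build the files name, mm7, the Col3a1 probe lay on the plus strand at chr1:45585395-45585454, the Col5a3 probe on the minus strand at chr9:20639940-20639999, the Col1a1 probe on the plus strand at chr11:95060800-95060859 and the Mmp8 probe on the plus strand at chr9:7566361-7566420. The Lamb3 probe, on the plus strand at chr1:192893546-192896077, spanned 2532 bases of genome, more than its own 60. No annotation of that build was used, so exon and UTR positions are not stated.

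For 3 collagen genes a probe lay in the part that encodes the triple helix: a glycine codon, GG followed by any base, recurs in it once per triplet from end to end. These codons are in capitals:
Col11a2: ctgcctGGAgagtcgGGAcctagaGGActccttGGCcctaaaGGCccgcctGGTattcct
Col5a1: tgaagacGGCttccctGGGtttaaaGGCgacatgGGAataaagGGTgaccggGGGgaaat
Col5a3: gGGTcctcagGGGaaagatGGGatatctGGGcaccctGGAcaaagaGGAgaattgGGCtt

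The Col11a2 probe was well above background in 8 of 8 channels, the Col5a1 probe in 5 and the Col5a3 probe in 1. For Col5a1 and Col5a3 the brighter probe, the one used here, lay elsewhere in the transcript. The dim repeat probe of Col5a1 gave a maternal response of -0.03, and that of Col5a3 gave -0.04, against -0.44 and -0.67 from the bright ones.

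In the maternal liver, 2 of the 49 measured genes passed the rule after food deprivation, 1 in each direction, against 3.93% of the 16148 genes measured (1.8% higher and 2.14% lower). Col3a1, the chain of type III collagen, which forms fine fibrils with type I, fell 3.19-fold (-1.42 and -1.92). Its log2 level was 10.58 and 10.70 in the control maternal pool and 9.16 and 8.78 in the food-deprived one, so that both food-deprived values lay below both control values. Lamb3, the beta chain of laminin-332, a laminin of epithelial basement membranes, rose 2.68-fold (1.29 and 1.56). Its log2 level was 6.93 and 6.37 in the control mothers and 8.22 and 7.93 in the food-deprived mothers, again without overlap.

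The fall of Col3a1 rests on 1 probe. Of its other 2 probes, 1 was well above background in 4 channels and the other in 1, neither was measured in the maternal comparison, and their mean maternal log2 ratios were 0.013 and -0.0049. With median centring of each array in place of the loess curve, the mean of Col3a1 was -1.67 and it no longer passed, because 1 array was under 1.5-fold. Lamb3 has 1 probe on the array.

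**Figure D1:**
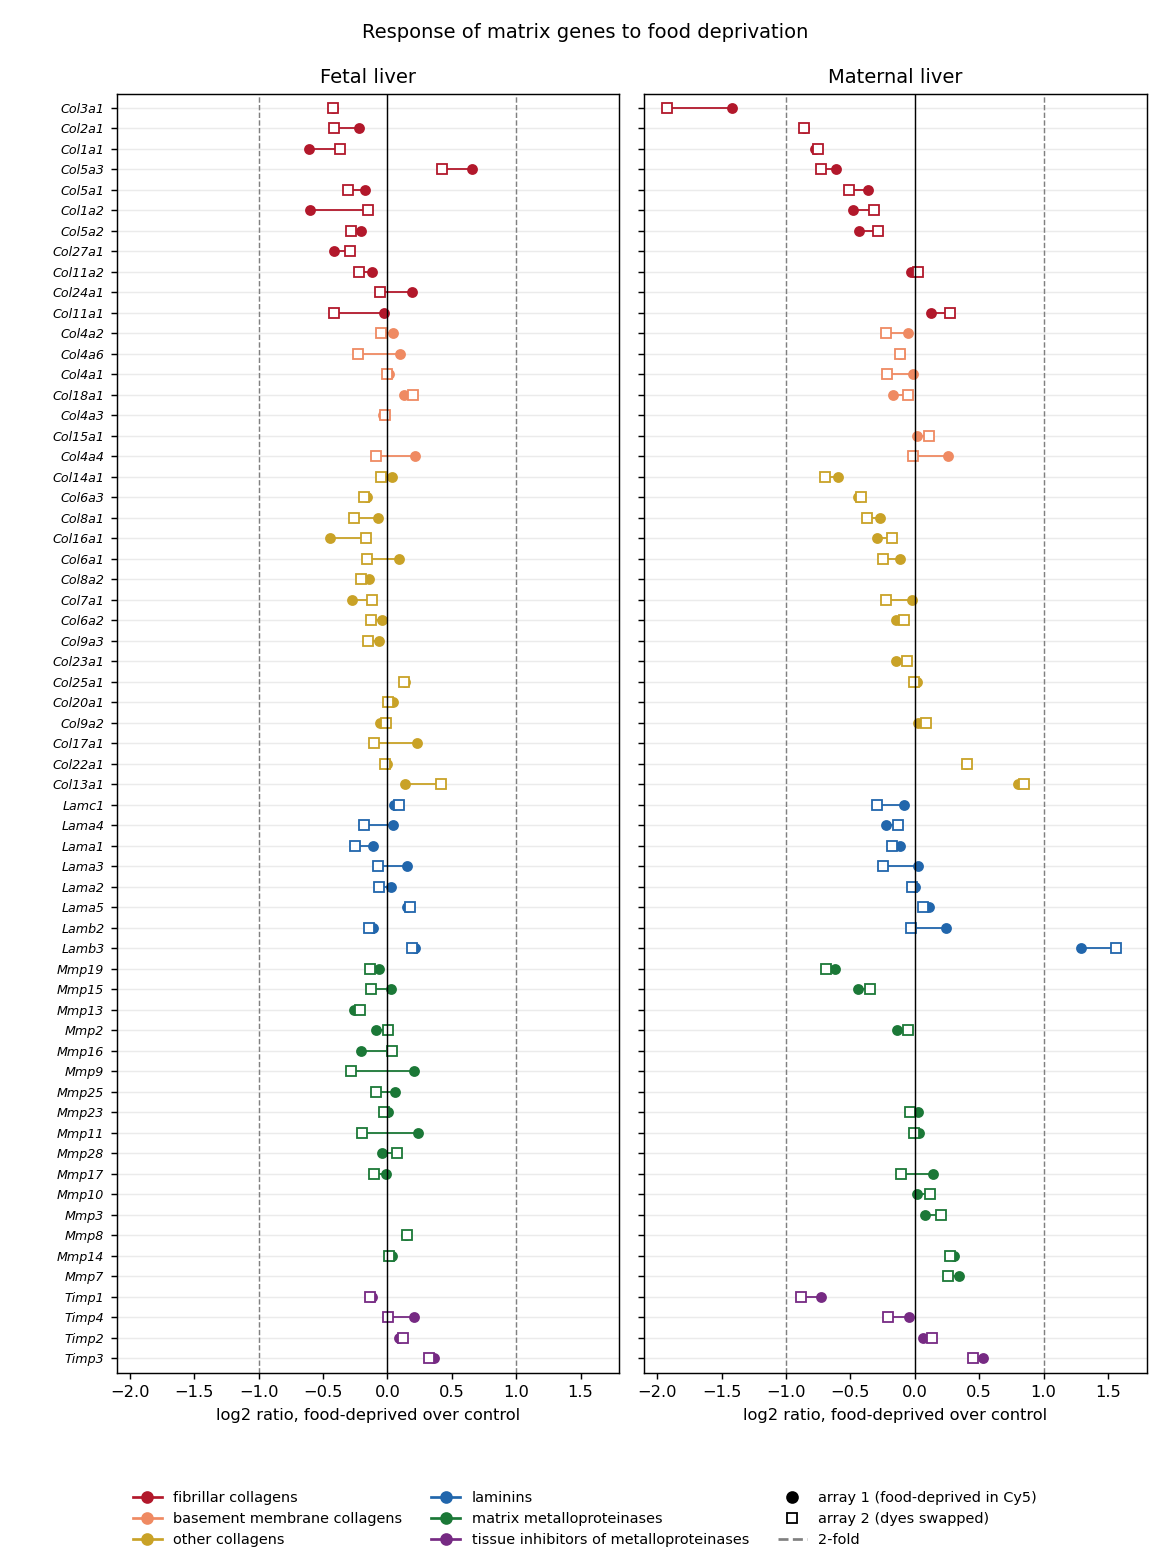
Log2 ratio of food-deprived over control liver (x axis) for the measured matrix genes (y axis; 1 gene is not drawn) in the fetus (left) and the mother (right); filled circles are array 1, open squares array 2, colours the families, and dashed lines mark 2-fold. In the mother, Col3a1 and Lamb3 lie past 2-fold on both arrays, and in the fetus no gene does.

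The fibrillar collagens lay mostly below 0 in the maternal liver. Of 9 measured, 7 were below 0 on both arrays, 1 was called lower and 4 were at least 1.5-fold lower on both arrays, with a median log2 ratio of -0.44. The count of 4 depends on the probe read: Col1a1 and Col2a1, which are among them, each had a second measured probe near 0 (mean -0.08 and -0.02). Over all measured genes the median was -0.01, 37.97% lay below 0 on both arrays, 4.97% were at least 1.5-fold lower on both and 4.06% at least 1.5-fold higher. Over all 49 matrix genes, 7 were at least 1.5-fold lower and 2 at least 1.5-fold higher on both arrays. Under median centring, 3 of the 9 were below 0 on both arrays, with a median of -0.46. The number of all genes called fell from 635 to 170 in that setting, and their share below 0 on both arrays was not counted there.

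Beside Col3a1, those past 1.5-fold but short of the rule were Col2a1, the collagen of cartilage (-0.86 and -0.86), Col1a1, the alpha1 chain of type I collagen (-0.78 and -0.75), and Col5a3, a chain of type V collagen (-0.62 and -0.73). Col1a1 stood at 9.05 and 8.99 in control mothers and at 8.27 and 8.24 in food-deprived mothers, with no overlap. Its partner Col1a2, the alpha2 chain, had ratios of -0.48 and -0.32. The type V chains Col5a1 (-0.36 and -0.51) and Col5a2 (-0.43 and -0.29) were shifted the same way by less. Col11a2 lay near 0 on its one measured probe (-0.03 and 0.03), and Col11a1, a type XI chain that sits inside fibrils, was the one fibrillar collagen above 0 on both arrays (0.12 and 0.27).

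Probes of 1 gene did not always give the same value. A second Col1a1 probe, well above background in 7 of 8 channels, gave a maternal log2 ratio of -0.07 and -0.09. For Col2a1, 2 of the 3 probes share 40 bases, in capitals, and both were well above background in 8 of 8 channels:
Col2a1 probe used: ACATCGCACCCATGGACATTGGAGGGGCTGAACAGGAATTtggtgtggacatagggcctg
Col2a1 second probe: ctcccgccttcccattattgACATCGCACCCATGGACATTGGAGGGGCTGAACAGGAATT

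They lay on the minus strand at chr15:97979237-97979296 and chr15:97979257-97979316 (mm7). The probe used gave a mean maternal log2 ratio of -0.86 and the second -0.02. For the control level, mother over fetus, they gave -1.02 and 0.66. The value of Col2a1 in this liver RNA therefore depends on which of these overlapping probes is read. Of 6 cartilage markers, Matn1, Matn3, Hapln1 and Sox5 were not above background in any channel, and 1 was measured.

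**Figure D2:**
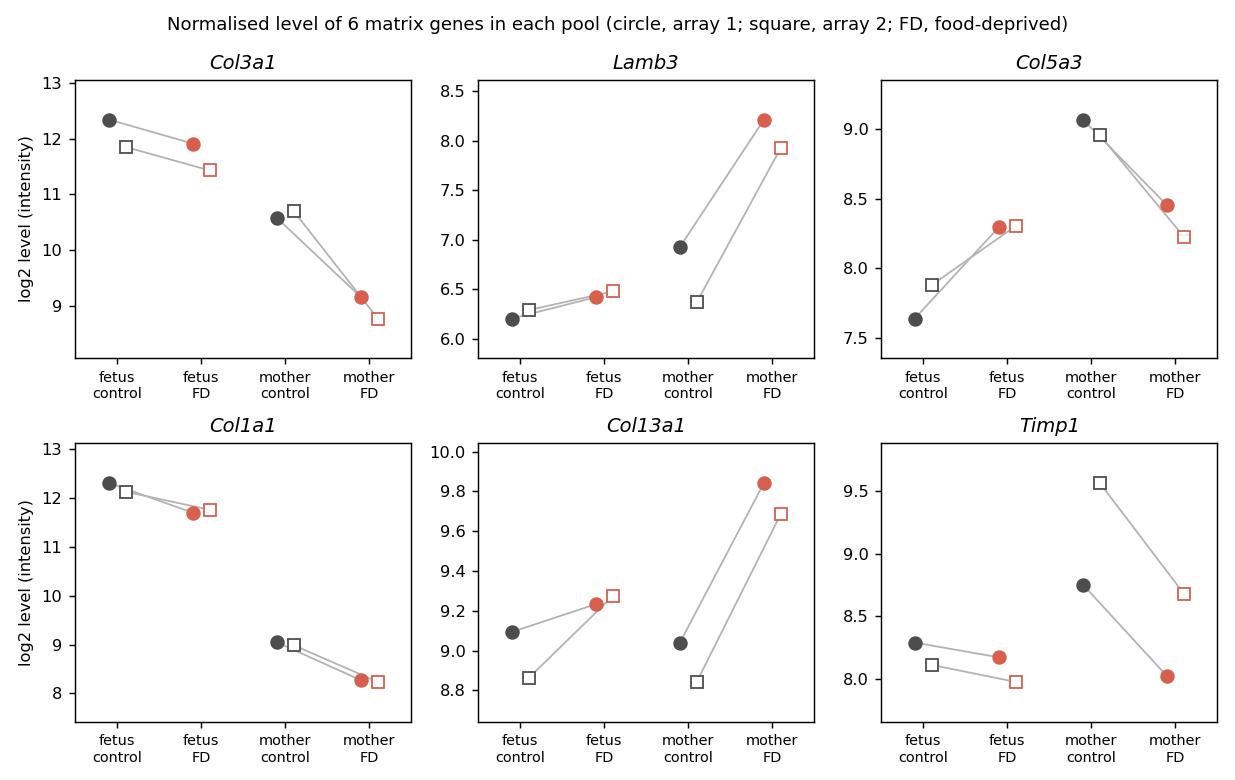
Normalised log2 level (intensity, y axis, a separate scale per panel) of 6 matrix genes in the 4 pools (x axis; FD, food-deprived); circles are array 1, squares array 2, and grey lines join the pools of an array. Col3a1, Col1a1 and Timp1 are lower and Lamb3 and Col13a1 higher in food-deprived than in control mothers on both arrays, and Col5a3 moves in opposite directions in fetus and mother.

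The basement membrane collagens were close to 0 in the mother, with 6 measured, none called and a median of -0.11. Col4a1 and Col4a2, the chains of the common collagen IV network, which neighbour each other on chromosome 8, gave -0.01 and -0.21 and -0.05 and -0.22. Col4a4, a chain of specialised basement membranes, gave 0.26 and -0.02, and the arrays differ in direction.

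Of the 12 other collagens measured in the mother none was called, and the median was -0.12. Col13a1, a transmembrane collagen, was the highest (0.80 and 0.85, 1.77-fold), with log2 levels of 9.04 and 8.84 in control and 9.84 and 9.69 in food-deprived mothers. Its second measured probe gave 0.30 and 0.35. Col14a1, a collagen that sits on the surface of fibrils, was the lowest (-0.59 and -0.70), with levels of 11.29 and 11.16 in control and 10.70 and 10.46 in food-deprived mothers. The groups of both genes did not overlap. The beaded filament collagen Col6a3 gave -0.44 and -0.41, Col8a1, a short-chain collagen, gave -0.27 and -0.37, and Col22a1 gave 0.40 and 0.41.

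Among the 8 measured laminins, Lamb3 stood alone. The next highest was Lamb2 (0.24 and -0.03), and the lowest was Lamc1, the gamma chain found in most laminins (-0.08 and -0.30). Lama3, which encodes the alpha chain that pairs with Lamb3 in laminin-332, gave 0.02 and -0.25.

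Of the 10 matrix metalloproteinases measured in the mother none was called. Mmp19 was the lowest (-0.62 and -0.69, 1.57-fold lower), with log2 levels of 7.69 and 7.79 in control and 7.08 and 7.10 in food-deprived mothers. Mmp15, a membrane-bound protease, gave -0.44 and -0.35. Mmp7, matrilysin, gave 0.34 and 0.26, and Mmp14, the membrane protease that activates pro-Mmp2, gave 0.31 and 0.27. Mmp2, gelatinase A, gave -0.13 and -0.05. Mmp3, stromelysin 1, gave 0.08 and 0.21.

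The inhibitors went different ways. Timp1, the inducible inhibitor, was 1.75-fold lower in food-deprived mothers (-0.73 and -0.88), short of the rule, with levels of 8.75 and 9.56 in control and 8.03 and 8.68 in food-deprived mothers. The groups did not overlap within an array, but the second food-deprived value was close to the first control value. Timp3, which binds to the matrix, gave 0.53 and 0.45, Timp2 gave 0.07 and 0.13, and Timp4 gave -0.04 and -0.21. The other 2 Timp1 probes were not measured in the mother.

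Markers of other cells moved in the maternal liver too. Of 10 Kupffer cell and macrophage markers, 3 (Adgre1, Cd5l and Folr2) fell, 9 were below 0 on both arrays and the median was -0.57. Their summed level was 24900 and 22670 in control and 15010 and 13790 in food-deprived mothers. The summed level of the 12 stellate cell and fibroblast markers was 19750 and 17850 in control and 20480 and 20470 in food-deprived mothers; none was called, and the median was -0.10. Within that list Acta2, smooth muscle actin, gave -0.64 and -0.65, while Pdgfra, a fibroblast receptor, gave 0.92 and 0.55. Of the 12 endothelial markers, 9 were below 0 on both arrays, with a median of -0.19; none was called lower, and 1, Lyve1, rose (1.17 and 1.03). Their summed level was 13390 and 13930 in control and 12240 and 12430 in food-deprived mothers. The bile duct markers summed to 4429 and 4259 in control and 3467 and 3116 in food-deprived mothers, with 5 of 7 measured below 0 on both arrays and a median of -0.10. Among all genes measured in the mother, 2.14% were called lower and 37.97% lay below 0 on both arrays. The part of these marker shifts in the collagen values was not tested.

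Genes that make, fold and cross-link collagen were read from a separate list. Of 21 measured in the mother, 1 was called lower and none higher, 14 were below 0 on both arrays and the median was -0.29. The called gene was Serpinh1, which encodes HSP47, the collagen-specific chaperone of the endoplasmic reticulum (-1.41 and -1.12). In the other lists, Serpinf2, the inhibitor of plasmin, fell (-1.16 and -1.23), Itgb3, an integrin beta chain, rose (1.26 and 1.04), and Ccn2, the connective tissue growth factor, rose 2.88-fold (1.62 and 1.44). These were 1 of 12 measured proteases and inhibitors, 1 of 19 matrix receptors and 1 of 17 TGF-beta and matrix regulators. The share called over all genes measured in the mother was 3.93%, so 1 call per list is not a result about the list. None of the 19 other matrix components measured was called.

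In the fetal liver, none of the 58 measured genes passed the rule, against 0.786% of 18055 genes (0.521% higher and 0.266% lower). None reached 1.5-fold on both arrays, against 1.37% of genes higher and 0.742% lower. The median was -0.04, beside 0.00 (-0.000885) over all genes, and on the single arrays it was 0.0049 and -0.095, on either side of 0. The highest was Col5a3 (0.66 and 0.43, 1.45-fold), with log2 levels of 7.64 and 7.88 in control and 8.29 and 8.30 in food-deprived fetuses, without overlap. The lowest was Col1a1 (-0.61 and -0.37), with 12.31 and 12.13 in control and 11.70 and 11.76 in food-deprived fetuses, also without overlap.

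Of the 11 fibrillar collagens measured in the fetus, 9 lay below 0 on both arrays, with a median of -0.24; over all genes 31.56% did. Col3a1 gave -0.42 and -0.42, Col1a2 -0.60 and -0.15, and Col27a1, a fibrillar collagen of cartilage and developing tissue, -0.41 and -0.29. Col2a1 gave -0.22 and -0.41 and Col5a2 -0.21 and -0.28. These shifts are small beside the call rule, although most exceed the SD per array. Under median centring 2 of the 11 were below 0 on both arrays, with a median of -0.30, so the count depends on the loess step. The number of all genes called fell too, from 142 to 51. The share of all genes below 0 on both arrays was not counted in that setting.

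Beside the fibrillar collagens, 6 of 8 skeletal muscle markers were below 0 on both fetal arrays, with a median of -0.25. Their summed level was 1789 and 2065 in control and 1389 and 1529 in food-deprived fetuses. The erythroid markers had a median of -0.22, with 5 of 7 below 0 on both arrays. The bile duct markers had a median of -0.11, with 3 of 7 below 0 on both arrays, and summed to 7600 and 7284 in control and 6007 and 5588 in food-deprived fetuses. The stellate cell and fibroblast markers had a median of -0.01, with summed levels of 17540 and 17060 in control and 17380 and 18690 in food-deprived fetuses. The part of these cell types in the collagen values was not tested.

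The other families stayed nearer 0 in the fetus. The laminins had a median of 0.04, and Lamb3 was the highest of them (0.22 and 0.19). Of the proteases, Mmp13, collagenase 3, was the lowest (-0.26 and -0.21), and Mmp8, the neutrophil collagenase, the highest (0.15 and 0.16). Mmp9, gelatinase B, gave 0.21 and -0.28, in opposite directions on the arrays. Timp3 was the highest inhibitor (0.36 and 0.32), and Timp1 gave -0.12 and -0.14. Col13a1 gave 0.14 and 0.41, and Col16a1, a fibril-associated collagen, -0.45 and -0.16. Of the 25 genes of collagen biosynthesis measured, 1 was called: Pcolce2, an enhancer of procollagen processing, fell 2.07-fold (-1.12 and -0.98). The share called over all genes measured in the fetus was 0.786%.

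The fetal and maternal responses were then set against each other for the 44 genes measured in both, on arrays of equal dye orientation. The maternal minus the fetal log2 ratio passed the rule for 3 of 44, against 3.42% of 15598 genes (1.4% higher and 2.01% lower). It was lower for Col3a1 (-0.9985 and -1.50) and Col5a3 (-1.27 and -1.16), and higher for Lamb3 (1.07 and 1.37). Col3a1 was below 0 on all 4 arrays and differed in size, Lamb3 was above 0 on all 4, and Col5a3 was above 0 in the fetus and below 0 in the mother. On the first arrays alone the difference for Col3a1 was just short of 2-fold. Lamb3 no longer passed (0.91) when the local background of stained spots was kept as scanned. Timp1 (-0.61 and -0.74), Col14a1 (-0.63 and -0.65), Mmp19 (-0.56 and -0.55) and Col13a1 (0.66 and 0.43) did not pass.

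**Figure D3:**
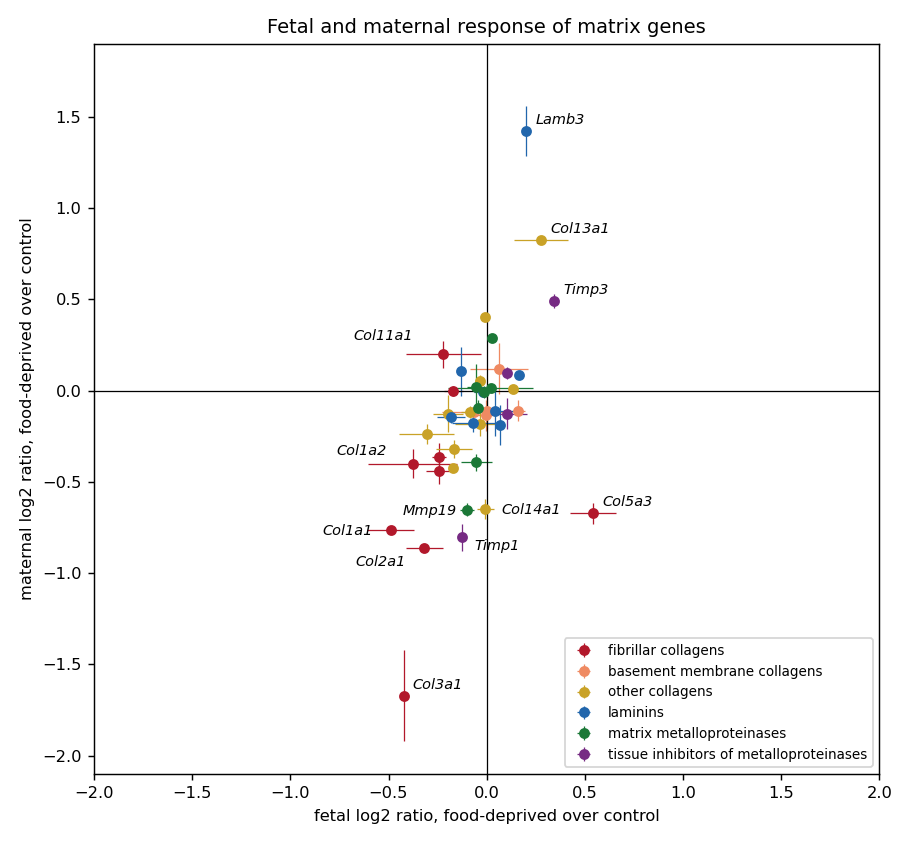
Fetal (x axis) against maternal (y axis) log2 ratio of food-deprived over control liver for the 44 matrix genes measured in both; points are means, bars run from one array to the other, and colours are the families (Col11a2 and Col22a1 are read from a different probe in each). Col3a1 lies low and Lamb3 high on the maternal axis, and Col5a3 is the point at the lower right.

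The control pools differed far more between mother and fetus than either did after food deprivation. Of 60 genes measured on either side, 17 passed the rule, 13 lower and 4 higher in the mother, against 22% of 18085 genes (11.6% lower and 10.4% higher). The median of the 60 was -0.31, beside 0.03 over all genes. The SD per array was 0.24 for this comparison, which sets different arrays against each other. The offset added to dim signals shrinks these differences: with an offset of 16, 24 of 60 passed, beside 4935 of 18085 genes. With the scanner software's processed signals, scaled to the 75th percentile, 39 of 60 passed, beside 7495 genes. That setting also replaces the background correction and the normalisation.

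The fibrillar collagens held 8 of the 13 that were lower in the mother, out of 11 measured, with a median of -1.39. Col1a1 was 9.23-fold lower (-3.27 and -3.15), at 12.31 and 12.13 in the fetal control pool and 9.05 and 8.99 in the maternal one. Col5a1 was 9.03-fold lower (-3.28 and -3.07), at 11.30 and 11.20 in the fetus and 8.02 and 8.13 in the mother. Col1a2 (-2.37 and -2.41), Col5a2 (-1.81 and -1.81), Col3a1 (-1.75 and -1.15), Col11a1 (-1.31 and -1.46), Col27a1 (-1.11 and -1.01) and Col2a1 (-0.80 and -1.24) followed. The fetal and maternal control values of these did not overlap, but the genes were picked by the call rule, which makes that likely.

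Col5a3 went the other way and was 2.39-fold higher in the mother (1.43 and 1.08), at 7.64 and 7.88 in the fetus and 9.07 and 8.96 in the mother. It was the one fibrillar collagen called higher in the mother and, in the fetus, the one above 0 on both arrays after food deprivation. Col11a2 gave -0.23 and -0.26 for the level on the probe used and 0.22 and 0.11 on its other probe, the one in the glycine repeat. The size of these differences depends on the probe: averaging all measured probes of a gene moved Col1a1 from -3.21 to -1.70 and Col5a1 from -3.17 to -1.67, both still past the rule. The second Col1a1 probe alone gave -1.70 and -1.82. The same averaging moved Col3a1 to -0.76, Col27a1 to -0.58 and Col2a1 to -0.18, none of which passes.

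**Figure D4:**
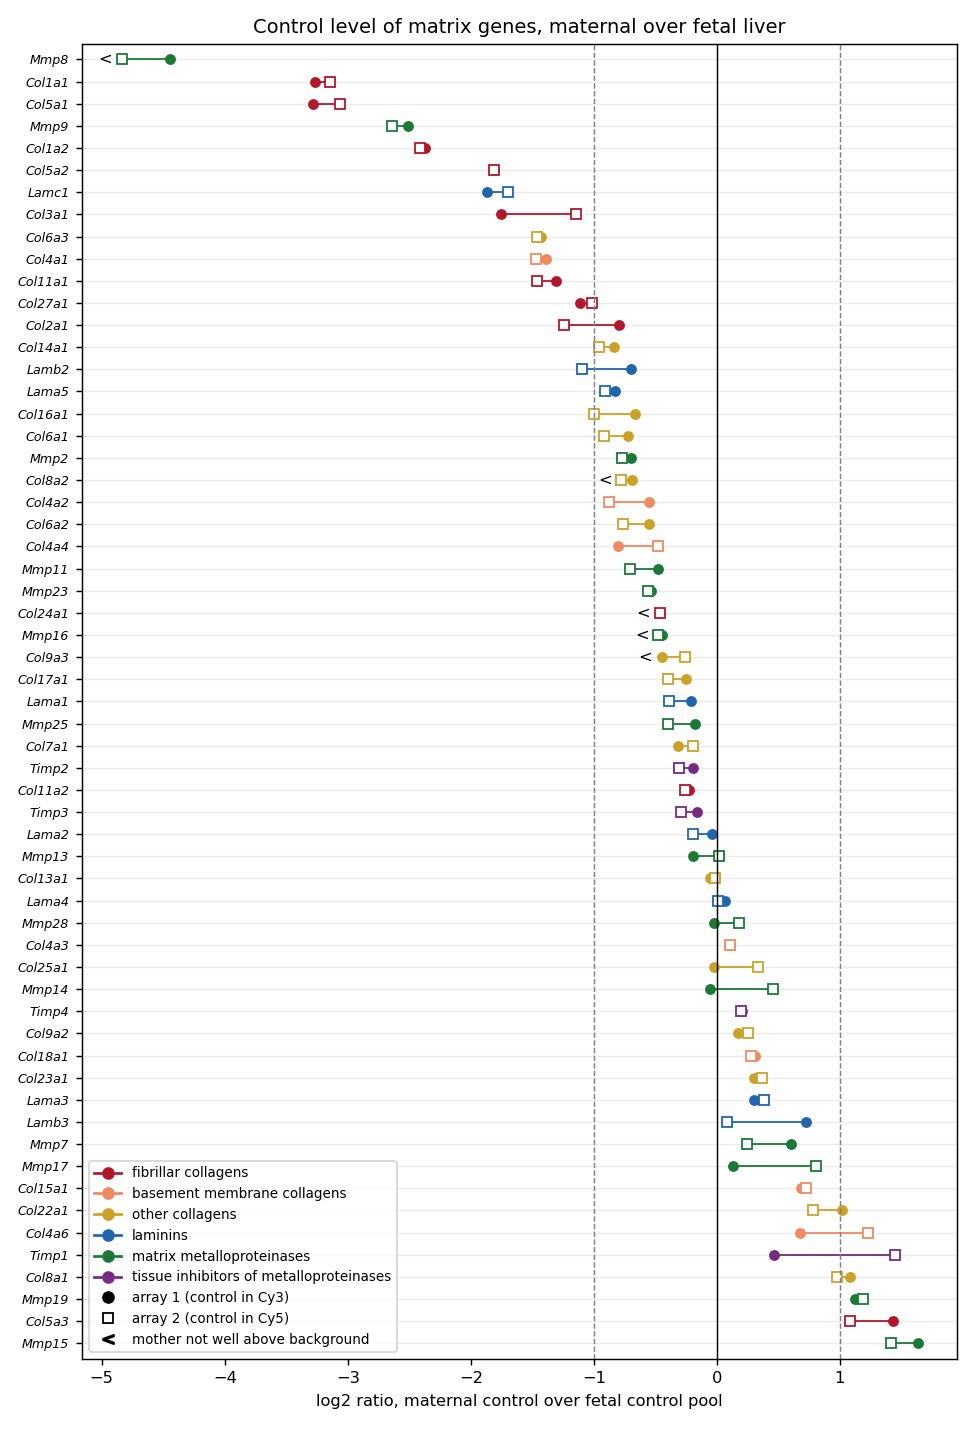
Log2 ratio of the maternal over the fetal control pool (x axis) for the matrix genes measured on either side (y axis). Genes are in order of the mean, and 1 gene is not drawn. Circles are array 1, squares array 2, and dashed lines mark 2-fold. The sign "<" marks genes with 1 control pool not well above background on either array, although the key names only the mother. With the maternal pool dim the true ratio may lie further left, and with the fetal pool dim further right. Mmp8, Col1a1 and Col5a1 are at the low end and Mmp15 and Col5a3 at the high end.

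Outside the fibrillar collagens, Lamc1 (-1.87 and -1.70), Col6a3 (-1.43 and -1.46) and Col4a1 (-1.39 and -1.47) were lower in the mother. Col4a2, the partner of Col4a1, gave -0.55 and -0.88, and the second Col4a1 probe gave -0.38 and -0.46. The second Col4a2 probe, well above background in 8 channels, gave 0.02 and -0.64, and its arrays differ in direction. Lamb1, outside the naming rule, gave -0.41 and -0.03. Col8a1 was higher in the mother (1.08 and 0.98); its control values on the first array alone, but not on the second alone, differed by 2-fold. Col4a6 (0.67 and 1.23), Col22a1 (1.02 and 0.78) and Col15a1 (0.69 and 0.72), a basement membrane collagen, were above 0 without passing. These probes of Col22a1 and Col15a1 were not measured in the fetal comparison, and the offset shrinks such differences. With an offset of 16 each of these genes passed (Col4a6 1.16, Col22a1 1.39 and Col15a1 1.19). Another Col4a6 probe, well above background in 5 channels, gave -0.26 and -0.28, the other direction. The other Col22a1 probe, well above background in 7 channels, gave 0.25 and 0.24.

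The proteases held the widest span. Mmp8 stood at 10.55 and 10.86 in control fetuses and was not well above background on either array in control mothers, so it was at least 25.0-fold lower there (-4.45 and -4.84). Mmp9 was 5.96-fold lower (-2.51 and -2.64), with the control mothers well above background on 1 of 2 arrays; its second probe gave -2.64 and -2.75. The size is uncertain at this signal: with processed signals scaled to the 75th percentile the mean log2 ratio of Mmp9 was -5.96. In the same control pools the granulocyte markers were lower in the mother in 8 of 8 measured, with a median of -5.89, against 11.6% of all genes called lower. The summed level of all 10 granulocyte markers on the array, measured or not, was 123600 and 90720 in the fetus and 1824 and 1766 in the mother. Mmp2 gave -0.69 and -0.77, and Mmp14 gave -0.06 and 0.45. Higher in the mother were Mmp15 (1.63 and 1.41) and Mmp19 (1.12 and 1.19), the latter at 6.57 and 6.59 in the fetus and 7.69 and 7.79 in the mother. Col8a2, Col24a1, Mmp16 and Col9a3 were also not well above background in control mothers, with bounds of at least 1.65-fold, 1.31-fold, 1.35-fold and 1.19-fold.

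None of the inhibitors passed. Timp1 gave 0.46 and 1.45, a difference between arrays larger than that of any fibrillar collagen, Timp2 gave -0.19 and -0.30, Timp3 -0.16 and -0.29, and Timp4 0.21 and 0.20.

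Of the 26 genes of collagen biosynthesis measured on either side, 8 were lower in the mother and 1 higher (all genes: 11.6% and 10.4%). Lower were Serpinh1 (-1.87 and -1.75), the prolyl hydroxylase subunit P4ha2 (-1.38 and -1.37), the chaperone Fkbp10 (-1.86 and -1.94), the prolyl hydroxylase partner Crtap (-1.09 and -1.09), Pcolce2 (-2.79 and -1.36), the cross-linking enzymes Lox (-1.27 and -1.38) and Loxl2 (-1.54 and -1.45), and Sparc (-1.09 and -1.25), which binds collagen. Mia3, which loads procollagen into transport vesicles, was higher (1.32 and 1.24). Of 23 other matrix components, 7 were lower and 1 was higher; Thbs1, thrombospondin 1, was lowest (-3.20 and -3.22) and Efemp1, fibulin 3, highest (1.53 and 1.57).

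Markers of other cells differed between the control pools as well. Of 12 stellate cell and fibroblast markers, none was lower and 1, Rgs5, was higher in the mother, with a median of 0.07 and summed levels of 17540 and 17060 in the fetus and 19750 and 17850 in the mother. The skeletal muscle markers summed to 1789 and 2065 in the fetus and 557.5 and 546.9 in the mother, with 8 and 2 of 8 well above background, and the mesothelial markers to 1103 and 1091 and to 498.6 and 533.9, with 6 and 2 of 6. The 7 erythroid markers were all lower in the mother, against 11.6% of all genes. They summed to 137300 and 138100 in the fetus and 13600 and 12270 in the mother. The part of these cells in the collagen levels was not tested.

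For 6 of the 9 fibrillar collagens looked up, RefSeq promoters on GRCm38.p6 were at hand, and the 150 bases before the start are shown for Col1a2, lower in the mother, for Col3a1, which fell in the food-deprived mother, and for Col5a3, called higher in the mother. Capitals mark a CCAAT box, a TATA box, searched as the letters TATAA, or a GC box, searched as the letters GGGCGG, each on either strand:
Col1a2: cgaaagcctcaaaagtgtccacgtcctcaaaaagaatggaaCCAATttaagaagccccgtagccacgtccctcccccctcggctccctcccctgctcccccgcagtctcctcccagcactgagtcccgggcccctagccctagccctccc
Col3a1: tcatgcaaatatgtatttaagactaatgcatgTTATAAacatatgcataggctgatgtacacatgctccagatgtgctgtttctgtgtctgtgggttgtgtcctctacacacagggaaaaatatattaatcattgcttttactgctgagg
Col5a3: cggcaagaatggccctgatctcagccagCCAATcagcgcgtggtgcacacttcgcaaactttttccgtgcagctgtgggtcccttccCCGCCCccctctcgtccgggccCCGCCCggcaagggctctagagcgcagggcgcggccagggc

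These windows are chr6:4505468-4505617 (plus strand), chr1:45311388-45311537 (plus strand) and chr9:20815068-20815217 (minus strand). Col1a2 held 1 CCAAT box. Col3a1 held 2 overlapping matches of the TATA box, 1 on each strand. Col5a3 held 1 CCAAT box and 2 GC boxes, the latter on the other strand. In windows of this length, the CCAAT box occurred in 24.5% of 32851 RefSeq promoters, the TATA box in 14.2% and the GC box in 28.6%. A match is only a run of letters, and no factor was measured.

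Genes next to each other on a chromosome differed in some pairs and lay close in others, and not every pair had both genes measured. Of 10 pairs of these genes with no other protein-coding gene between them in RefSeq, Col3a1 and Col5a2 on chromosome 1 gave mean maternal responses of -1.67 and -0.36, and control level differences of -1.45 and -1.81. Col6a2 and Col6a1 on chromosome 10 gave maternal responses of -0.11 and -0.18 and level differences of -0.66 and -0.82. Col4a1 and Col4a2 on chromosome 8 gave maternal responses of -0.11 and -0.14.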

How the data were processed

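The deposited scanner files hold intensity values of each spot and its local background in both dyes, plus a log10 ratio of processed signals, made by the authors with Agilent Feature Extraction (9.5.1.1 per the file headers, 9.5.3.1 per the submitters' processing notes). The deposited series table tracks the red over green processed ratio (r at least 0.9999); its column medians are -0.92, 0.94, -0.88 and 0.88, its sign was dropped, and what the sign means stays unknown.

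In R 4.3.3 with limma 3.58.1, local backgrounds of stained spots (net signal under -20; 6 and 4 spots on the second arrays) were set to the array median. Intensities were then corrected with normexp (offset 50) and normalised by loess within arrays, with control spots at weight 0. Outlier spots were left out (215 to 257 per array), spots of a probe were averaged, and the probe with the highest mean intensity among those measured stood for a gene. Log2 levels were taken after Aquantile normalisation. The offset shrinks differences of dim probes. For bounds, the mean of the bright side was divided by that of the dim side, each dim value being raised to at least the lowest intensity called well above background on its array.

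Names came from the files or, for 22951 of 41174 probes, through the accession in RefSeq (GRCm38.p6). The members and lists were chosen with earlier results of these data known. Named were called members, the 10 highest and 10 lowest per comparison and a short list of main genes; probes shown were chosen after their values were seen. The calculation was tested on simulated data. Alternatives covered background, normalisation, offset, filter, probe choice and threshold. The number of arrays limits the precision. Values of some genes are not reported here.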

Additional observations from a re-analysis of the deposited data

Results flagged for a closer look

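For 7 of the 44 genes measured in both, both fetal arrays lay on one side of 0 and both maternal arrays on the other. How many of all genes did so was not counted, so 7 is not a result about these genes. Among all measured genes, 31.56% were below 0 on both arrays in the fetus and 37.97% in the mother. The difference was not tested. The widest was Col5a3, with a maternal minus fetal log2 ratio of -1.21 (0.66 and 0.43 in the fetus, -0.62 and -0.73 in the mother), the one of the 7 that also passed the call rule. Col11a1 differed by 0.42, Col18a1 by -0.27, Lamc1 by -0.26 and Timp4 by -0.23. Col22a1 differed by 0.11 on the 1 probe measured in both, and Col9a2 by 0.091. Both of these are smaller than the SD per array of a response in either comparison.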

How the results depend on the processing

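No paired analysis was possible because the replicate numbers mark the dye orientation of pools that count as 1 replicate, and no test was made. No called gene changed direction under any alternative run. Lamb3 kept its maternal call under all 12 alternatives (1.08 to 2.95), and Col3a1 under 11 (-1.92 to -1.42). Some of these could not end a call: a 1.5-fold mean is a looser rule, and averaging measured probes had only 1 probe of each gene. The scanner software's log ratio and the series table hold nearly the same values, so they are not separate checks. With the scanner software's log ratio, 1 gene was called in the fetus (Mmp13, -1.05) and 7 in the mother, among 404 and 1472 genes, with 1204 for the difference and a maternal median of -0.20; with the series table these were 1, 7, 406, 1477, 1198 and -0.20 (-0.2043 and -0.2033). Median centring gave 1 maternal member, and 51 fetal and 170 maternal genes; higher genes were then 47.1% of fetal calls in place of 66.2%. Processed signals scaled to the 75th percentile gave 39 members and 7495 genes for the control level, with a median of -0.86, while the median of all genes moved from 0.03 to 0.15. A 1.5-fold mean gave 9 maternal, 27 level and 5 difference members, and 382, 1457, 6111 and 1432 genes. The maternal median was -0.03 (-0.0321) with no filter on dim probes, -0.16 with an offset of 16, and between -0.10 and -0.042 on single arrays. The level median was -0.23 with backgrounds as scanned, -0.11 with no filter, -0.41 at 10 SD above negative controls and -0.53 with an offset of 16. Backgrounds as scanned ended the level calls of Col27a1 (-0.86), Col2a1 (-0.92), Col8a1 (0.86) and Mmp19 (0.97). Averaging probes ended that of Col4a1 (-0.92), and Col2a1 was lost under quantile normalisation (-0.9997) and without the second array (-0.80). The causes were not tested.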
